A study of Mus musculus with 6 samples.

Results

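The genes described here are 8 genes of the smooth muscle contractile apparatus, chosen by symbol: Acta2, Actg2, Myh11, Tagln, Cnn1, Des, Myl9 and Lmod1. All 8 were found among the 18194 genes measured, on 12 probe sets with exactly 1 gene symbol. For each gene the probe set with the highest mean over the 6 arrays was used, and the remaining 4 probe sets, of Acta2, Myh11 and Des, served as a check. The study grew spermatogonial stem cells, which renew themselves in the testis and supply the sperm lineage, and collected 3 types mechanically on their morphology, with 2 arrays for each. SSC are the unipotent germ-line cells, mSSC the multipotent ones, and iSSC lie between them. All cultures were from male ICR mice aged 3 to 5 days, and the labels give no genetic change and no drug for any group. Clumps of passages 0 to 1 and 9 to 10 went onto feeder layers of mitomycin-treated mouse embryonic fibroblasts after first growing on testicular somatic cells, so a collected colony can hold RNA of other cells. Colonies that had turned flat or embryonic stem cell-like stayed in germ stem cell medium or went into a serum-free KSR medium, and which array came from which medium or passage is not given. Nothing states that the 2 arrays of a type come from different animals or cultures. The p-values thus reflect the spread between these samples only, which may be technical.

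Smooth muscle cells contract when myosin filaments pull on actin filaments, and phosphorylation of the myosin regulatory light chain starts the process. The contractile genes share a form of control in which serum response factor, with its co-activators myocardin and the myocardin-related factors, binds an A/T-rich sequence called the CArG box near the promoter. In the testis the peritubular myoid cells around the seminiferous tubules use this apparatus, and activated fibroblasts in culture also express part of it, Acta2 and Tagln above all.

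The CArG boxes are shown here because they are the shared control element of these genes. A promoter window, 250 bases before to 50 bases after an annotated start, was available for 5 of the 8 genes (Acta2, Cnn1, Des, Myl9 and Lmod1) in RefSeq sequence of the mouse build GRCm38.p6. An exact CArG box, 10 letters long and the same on both strands, was in the window of 1 of the 5, Myl9, and in 1.63% of all 32851 windows. The stretch before Myl9, from chr2:156775214-156775407 on the plus strand, reads 5′ to 3′ as follows, with the box in capitals. It ends at the base before the first annotated base of the gene, and 95 bases lie between the box and that base. The window itself is placed on a start further inside the gene, from which the box begins at -161, and the positions given for the other stretches also count from the start of their window.
Myl9: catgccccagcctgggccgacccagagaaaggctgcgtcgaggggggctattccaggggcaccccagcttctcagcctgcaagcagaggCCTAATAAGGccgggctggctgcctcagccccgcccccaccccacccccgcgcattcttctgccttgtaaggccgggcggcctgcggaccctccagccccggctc

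With 1 mismatch allowed, CArG-like stretches were in 3 of the 5 windows, those of Acta2, Lmod1 and Myl9, and in 21.1% of all windows. The 2 stretches of Acta2 have the form long known for this promoter, a box with 1 base of its A/T core replaced. They are given with 10 bases on each side, the CArG-like letters in capitals, from chr19:34255438-34255467 and chr19:34255388-34255417 on the minus strand, beside the second stretch of Myl9 from chr2:156775355-156775384 and the first of Lmod1 from chr1:135324614-135324643, both on the plus strand.
Acta2 at -84: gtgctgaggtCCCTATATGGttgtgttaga
Acta2 at -34: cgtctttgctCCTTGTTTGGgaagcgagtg
Myl9 at -99: cattcttctgCCTTGTAAGGccgggcggcc
Lmod1 at -189: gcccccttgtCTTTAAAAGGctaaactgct
The M-CAT element (CATTCC on either strand), which Tead factors bind, was in the windows of Acta2 and Lmod1 and in 14.7% of all windows. None of these matches overlapped another. A match is only a stretch of letters, and the windows of Cnn1 and Des held neither kind within these bases.

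Levels are log2 signals, in which 1 unit is a 2-fold step, and differences are between group means ± SE. The SE and the test come from 1 limma fit over all 6 arrays, so each SE uses the replicate spread of the 3 groups together. Calls required an adjusted p under 0.05, by the Benjamini-Hochberg method over the 18194 genes. The lower quartile of all probe sets, between 4.23 and 4.38 per array, marks a level near background. The array medians lay between 5.83 and 5.93. In SSC replicate 1 the beta-actin control had a 3' signal above its 5' signal by 0.89, against 0.12 to 0.61 in the other arrays, a sign of shorter RNA or cDNA in that array. Centring each array on the median of the genes moved the median mSSC minus SSC difference of all genes from 0.08 to 0.33. It turned 1495 higher and 1930 lower calls into 2527 and 1432. In bulk RNA, fewer cells of a type and less RNA per cell cannot be told apart.

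**Figure D1:**
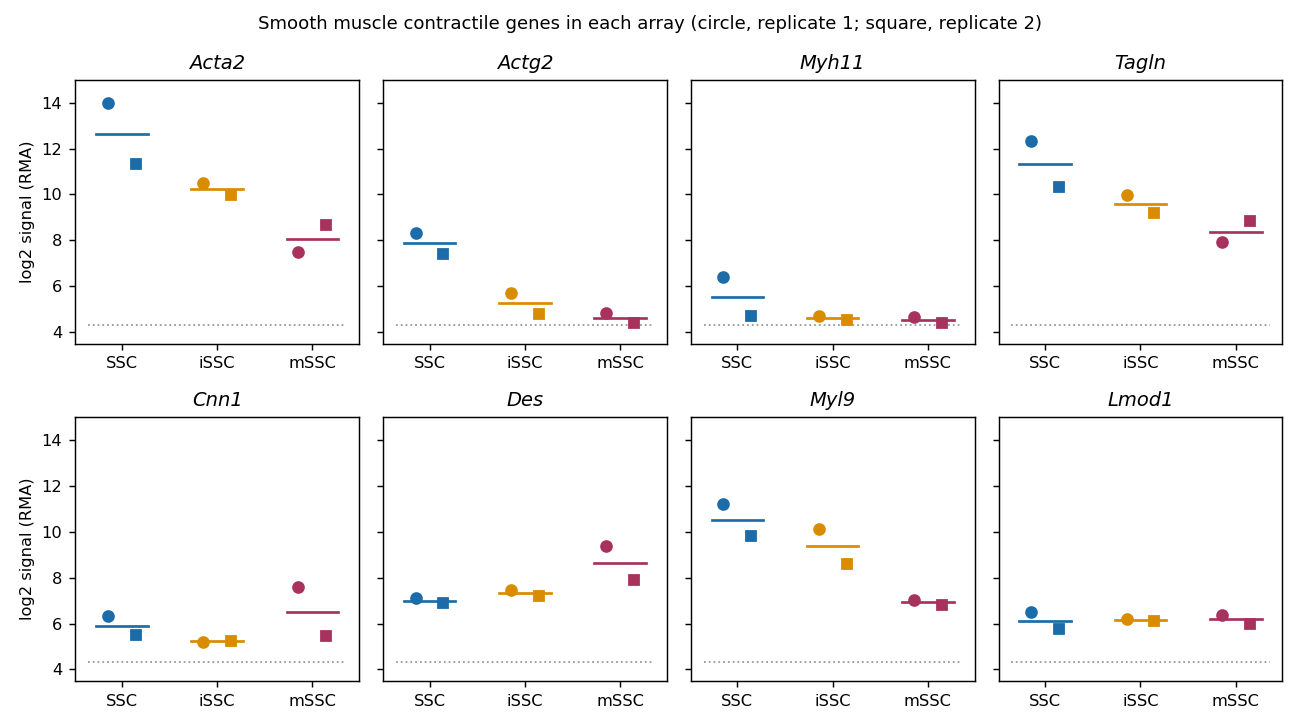
Log2 signal (RMA) of each of the 8 genes in every array, with a circle for replicate 1, a square for replicate 2 and a line at the group mean (n = 2). The dotted line is the mean lower quartile of the arrays. Acta2, Actg2, Tagln and Myl9 step down from SSC to mSSC, Des and Cnn1 are highest in mSSC replicate 1, and Myh11 lies near the dotted line outside SSC replicate 1.

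Of the 8 genes 4 fell in mSSC against SSC and none rose (limma, with 5 at an unadjusted p under 0.05). Over all genes 18.8% were called, 10.6% lower in mSSC and 8.22% higher. The 4 were both smooth muscle actins, the actin-binding protein gene Tagln and the light chain gene Myl9. The median difference of the 8 was -1.99, against 0.08 over all genes. The groups did not overlap for 5 genes lower in mSSC and 1 higher, against 26.3% and 32.3% of all genes. Of the 5, Myh11 was at 4.71 in SSC replicate 2 and 4.66 in mSSC replicate 1, near background. Without SSC replicate 1 the count was 2 (Acta2 and Actg2), and without mSSC replicate 1 it was 2 (Actg2 and Myl9).

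Acta2 encodes the alpha actin of smooth muscle, the actin isoform most used as a marker of myoid cells and myofibroblasts. Its level was 13.98 and 11.32 in SSC, 10.48 and 9.98 in iSSC, and 7.49 and 8.65 in mSSC, replicate 1 first here and for every gene that follows. No array of a type reached into the next type, although the SSC arrays lay further apart than SSC replicate 2 and iSSC replicate 1. It fell 23.9-fold in mSSC against SSC (-4.58 ± 0.85, n = 2 arrays per group, adjusted p = 0.0156). The difference was -3.25 without SSC replicate 1 (adjusted p = 0.0267), -4.00 without mSSC replicate 1 (adjusted p = 0.0659), and with the probe sets of the gene averaged it was -1.43 (adjusted p = 0.0517). The 2 other Acta2 probe sets lay at 3.30 to 4.15 in every array, near background, and their differences were -0.10 and 0.39. The main probe set has the suffix _s_at, which Affymetrix gives to sets whose probes match more than 1 transcript. Whether signal of other transcripts enters its values was not tested. In the same comparison Actg2 fell, as given below, and the cytoplasmic actins did not pass the test. Actb was at 13.88 to 14.69 (-0.27 ± 0.33, adjusted p = 0.623) and Actg1 at 13.19 to 13.76 (-0.27 ± 0.21, adjusted p = 0.436).

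Actg2 encodes the gamma actin of smooth muscle, which is abundant in visceral muscle. It was at 8.33 and 7.41 in SSC, 5.71 and 4.81 in iSSC, and 4.85 and 4.40 in mSSC. The SSC arrays stood above the other 4, and the iSSC and mSSC arrays overlapped. It fell in mSSC against SSC by 3.25 ± 0.43 on the log2 scale (adjusted p = 0.00574), to a level just above the lower quartile, so no fold is given. This call held in all 14 alternatives computed, with adjusted p from 0.00308 to 0.0250. It has 1 probe set with a single symbol.

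Tagln encodes transgelin (SM22), a calponin-related protein that binds actin filaments. Its level was 12.34 and 10.32 in SSC, 9.97 and 9.20 in iSSC, and 7.91 and 8.83 in mSSC. As for Acta2, the types were in the order SSC, iSSC, mSSC without overlap, and of the mSSC arrays replicate 2 was the higher. It fell 7.77-fold in mSSC against SSC (-2.96 ± 0.68, adjusted p = 0.0307). This call was the least stable of the 4. It passed in 8 of 14 alternatives, with adjusted p up to 0.122, and was lost on leaving out any array other than SSC replicate 2. Without SSC replicate 1, the brighter SSC array, the difference was -1.95 (adjusted p = 0.0719). It was -2.50 without mSSC replicate 1 (adjusted p = 0.122).

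Myl9 encodes the regulatory light chain of smooth muscle myosin, the subunit whose phosphorylation starts contraction and whose promoter holds the exact CArG box printed above. Its level was 11.21 and 9.82 in SSC, 10.14 and 8.58 in iSSC, and 7.01 and 6.83 in mSSC. The mSSC arrays lay below the other 4, and the SSC and iSSC arrays overlapped. It fell in mSSC against SSC by 3.59 ± 0.62 on the log2 scale (adjusted p = 0.0124), and without SSC replicate 1 the difference was -2.90 (adjusted p = 0.0507). It also fell in mSSC against iSSC, by 2.44 ± 0.62 (adjusted p = 0.0419). That second call passed in 7 of 14 alternatives and failed without any iSSC or mSSC array, with differences of -3.21 to -1.66 and adjusted p of 0.0501 to 0.200.

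The other 4 genes, Des, Cnn1, Myh11 and Lmod1, did not pass the test in mSSC against SSC. Des encodes desmin, the intermediate filament protein of smooth, skeletal and heart muscle. It was at 7.10 and 6.89 in SSC, 7.45 and 7.19 in iSSC, and 9.38 and 7.91 in mSSC. Both mSSC arrays lay above the other 4, and replicate 1 lay above replicate 2 by 1.47. The difference from SSC was 1.65 ± 0.46 (adjusted p = 0.0545), with a 95% confidence interval of 0.53 to 2.77. It passed in 5 of 15 alternatives, among them the scalings of the arrays to a common median (1.91, adjusted p = 0.0357) and to common quantiles (1.82, adjusted p = 0.0409). The difference was 2.39 without mSSC replicate 2 (adjusted p = 0.00853) and 0.91 without mSSC replicate 1 (adjusted p = 0.0996). The second Des probe set was at 3.99 to 4.72, near background in every array, with a difference of 0.19 (adjusted p = 0.648).

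Cnn1 encodes calponin, which binds actin and restrains the myosin motor. It was at 6.32 and 5.51 in SSC, 5.19 and 5.26 in iSSC, and 7.58 and 5.44 in mSSC. Only mSSC replicate 1 stood apart, by 2.14 above replicate 2, and the SSC and mSSC arrays overlapped. The mSSC minus SSC difference was 0.60 ± 0.67 (adjusted p = 0.585, 95% confidence interval -1.01 to 2.21). It was 1.67 without mSSC replicate 2 (adjusted p = 0.0485) and -0.47 without mSSC replicate 1 (adjusted p = 0.525), so mSSC replicate 1 sets the sign.

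Myh11 encodes the heavy chain of smooth muscle myosin, the member most specific to differentiated smooth muscle. It was at 6.39 and 4.71 in SSC, 4.69 and 4.53 in iSSC, and 4.66 and 4.39 in mSSC. SSC replicate 1 alone was clearly above the lower quartile, and the other 5 arrays lay between 4.39 and 4.71. The mSSC minus SSC difference was -1.02 ± 0.52 (adjusted p = 0.226). Without SSC replicate 2 it was -1.86 (adjusted p = 0.0121) and without SSC replicate 1 it was -0.18 (adjusted p = 0.642). The second probe set, at 3.89 to 4.36 in every array, gave 0.27 (adjusted p = 0.439).

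Lmod1 encodes leiomodin, which starts new actin filaments in smooth muscle. It was at 6.50 and 5.76 in SSC, 6.19 and 6.11 in iSSC, and 6.36 and 5.99 in mSSC. The 3 types overlapped, and the range over all arrays was 0.74. The mSSC minus SSC difference was 0.05 ± 0.30 (adjusted p = 0.930), and its 95% confidence interval of -0.68 to 0.77 leaves room for changes below 2-fold in either direction.

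**Figure D2:**
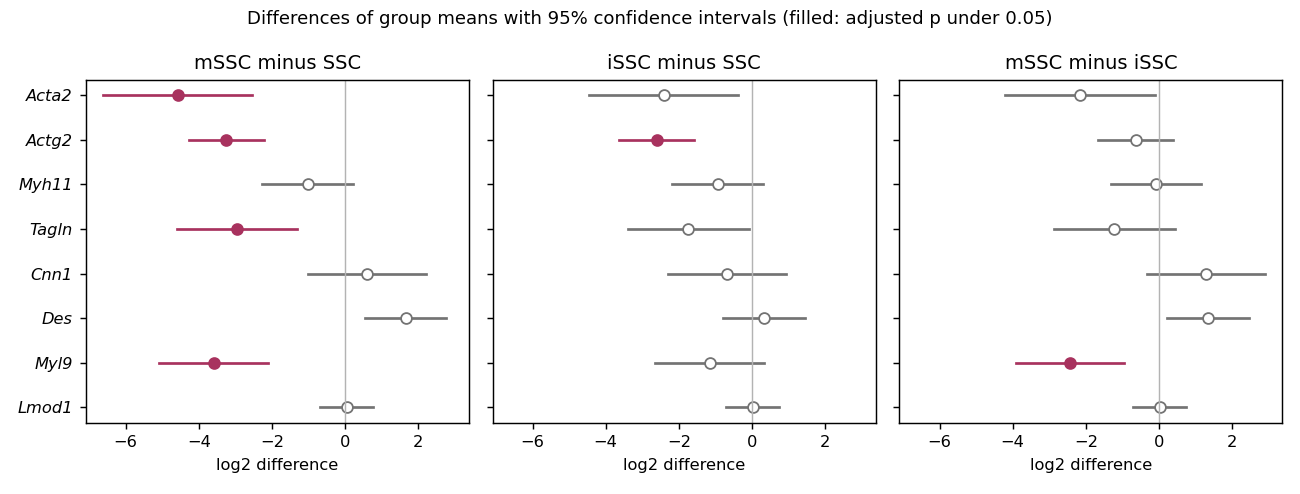
Log2 differences of group means for the 8 genes in the 3 comparisons, with 95% confidence intervals from limma (n = 2 arrays per group). Filled points have an adjusted p under 0.05: Acta2, Actg2, Tagln and Myl9 in mSSC minus SSC, Actg2 in iSSC minus SSC, and Myl9 in mSSC minus iSSC.

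In iSSC against SSC, Actg2 was the single member called. Over all genes 2.09% were called, 1.87% lower in iSSC and 0.225% higher. Actg2 fell by 2.61 ± 0.43 on the log2 scale (adjusted p = 0.0425), and both SSC arrays lay above both iSSC arrays. The call passed in 5 of 14 alternatives and was lost on leaving out any array other than SSC replicate 2 (differences of -3.06 to -2.14, adjusted p up to 0.267). Without SSC replicate 1 or either iSSC array, 0 of the 18194 genes were called in this comparison (limma, with 2527, 1357 and 2000 at an unadjusted p under 0.05). Acta2 (-2.42 ± 0.85, adjusted p = 0.230) and Tagln (-1.74 ± 0.68, adjusted p = 0.271) did not pass. Without SSC replicate 2 Acta2 was at -3.75 (adjusted p = 0.0464) and Myh11 at -1.78 (adjusted p = 0.0449). Without SSC replicate 1 they were at -1.08 (adjusted p = 0.448) and -0.10 (adjusted p = 0.867). The groups did not overlap for 5 of the 8 genes lower in iSSC and 1 higher, against 17.7% and 32.3% of all genes. Some margins were small. Myh11, near background, was at 4.71 in SSC replicate 2 and 4.69 in iSSC replicate 1. Cnn1 was at 5.51 in SSC replicate 2 and 5.26 in iSSC replicate 2. Des, the higher gene, was at 7.10 in SSC replicate 1 and 7.19 in iSSC replicate 2. The median difference of the 8 was -1.05, against 0.10 over all genes.

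In mSSC against iSSC, Myl9 was the single member called, as given above. Over all genes 17.1% were called, 9.60% lower in mSSC and 7.53% higher. Acta2 was at -2.16 ± 0.85 (adjusted p = 0.141), Tagln at -1.22 ± 0.68 (adjusted p = 0.298) and Actg2 at -0.64 ± 0.43 (adjusted p = 0.388). Acta2 passed with only the 4 arrays compared (adjusted p = 0.0283), which is the same fit as leaving out either SSC array. It passed in no other alternative. Des was at 1.33 ± 0.46 (adjusted p = 0.107) and Cnn1 at 1.29 ± 0.67 (adjusted p = 0.259). Both passed without mSSC replicate 2, at 2.07 (adjusted p = 0.0125) and 2.36 (adjusted p = 0.0200). Without mSSC replicate 1 they were at 0.59 (adjusted p = 0.261) and 0.22 (adjusted p = 0.824). The groups did not overlap for 3 genes lower in mSSC and 2 higher, against 33.2% and 29.6% of all genes. The iSSC and SSC comparisons with mSSC share the mSSC arrays, so their values are not independent.

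The replicates of a type differed in a way that touches all of these values. All 8 genes were higher in SSC replicate 1 than in replicate 2, by a median of 1.16, where 62.3% of all genes were higher in replicate 1 and the median was 0.14. Acta2 differed by 2.67, Tagln by 2.02 and Myh11 by 1.68. SSC replicate 1 is the array with the excess of beta-actin 3' signal given above, and the part of RNA quality in these differences was not tested. In mSSC, Cnn1 and Des were higher in replicate 1, and Acta2 and Tagln were higher in replicate 2, by 1.17 and 0.91.

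Markers of the other cells that a colony can hold moved between the same arrays. Of 27 fibroblast markers 18 fell in mSSC against SSC and none rose, and of 15 macrophage markers 14 fell and none rose. For every count here the shares of all genes were 10.6% lower and 8.22% higher in mSSC against SSC. In iSSC against SSC 1.87% of all genes were called lower. Without SSC replicate 1 the fibroblast count was 7. The median fibroblast level was 12.18 and 11.22 in SSC, 9.84 and 10.22 in iSSC, and 7.15 and 9.17 in mSSC. Within SSC and mSSC it was higher in the array with more Acta2 and Tagln signal, and within iSSC it was higher in replicate 2, where Acta2 and Tagln were lower. Actg2 and Myl9 were higher in replicate 1 of all 3 types. The median macrophage level was 11.64 and 10.90 in SSC, 9.19 and 8.68 in iSSC, and 5.24 and 5.18 in mSSC. On the log2 scale the summed signal of the fibroblast markers was 17.27 and 16.57 in SSC, 15.17 and 15.57 in iSSC, and 13.61 and 14.96 in mSSC. No fibroblast or macrophage marker was below the lower quartile in all arrays. In mSSC replicates 1 and 2, however, 2 and 5 macrophage markers were below it, against 0 in each SSC and iSSC array. The macrophage sum ran from 15.39 to 15.98 in SSC, from 13.59 to 14.37 in iSSC and from 10.82 to 11.93 in mSSC. In iSSC against SSC 2 fibroblast and 6 macrophage markers fell, and in the 3 leave-outs in which no gene at all was called these counts were 0 too. In mSSC against SSC, 9 of 13 Sertoli cell markers fell and 1 rose, and 4 of 10 endothelial markers rose and none fell. None of 4 Leydig cell markers was called by limma (1 lower at an unadjusted p under 0.05), and of 14 germ line markers 9 fell and 2 rose. The part of these cells in the changes of the contractile genes was not tested.

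Markers of peritubular myoid cells and pericytes other than the 8 genes were mixed. Of 15 measured 4 fell in mSSC against SSC (Pdgfrb, Nr2f2, Itga8 and Itga1) and Ptch1, the hedgehog receptor, rose by 1.57 ± 0.36 (adjusted p = 0.0295). The shares of all genes called were 10.6% lower and 8.22% higher. Pdgfrb, a growth factor receptor of mural cells, was at 9.45 and 8.84 in SSC, 7.96 and 8.47 in iSSC, and 6.88 and 7.39 in mSSC. It fell 4.01-fold in mSSC against SSC (SE 0.33 on the log2 scale, adjusted p = 0.0106). Rgs5, a pericyte marker, was near background at 3.74 to 4.58. The median level of the list was 8.06 and 7.52 in SSC, 6.97 and 7.36 in iSSC, and 6.18 and 6.29 in mSSC. The log2 of its summed signal was 12.19 to 12.58 in SSC, 12.14 to 12.18 in iSSC and 12.19 to 12.31 in mSSC. In the mSSC arrays Ptch1 was at 11.01 and 10.38 and Gli2 at 9.43 and 10.79, each above its SSC levels. Fewer markers of the list were called lower without SSC replicate 1 or without mSSC replicate 1. The defining marker of differentiated smooth muscle, Myh11, lay between 4.39 and 4.71 in 5 of 6 arrays and at 6.39 in SSC replicate 1.

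**Figure D3:**
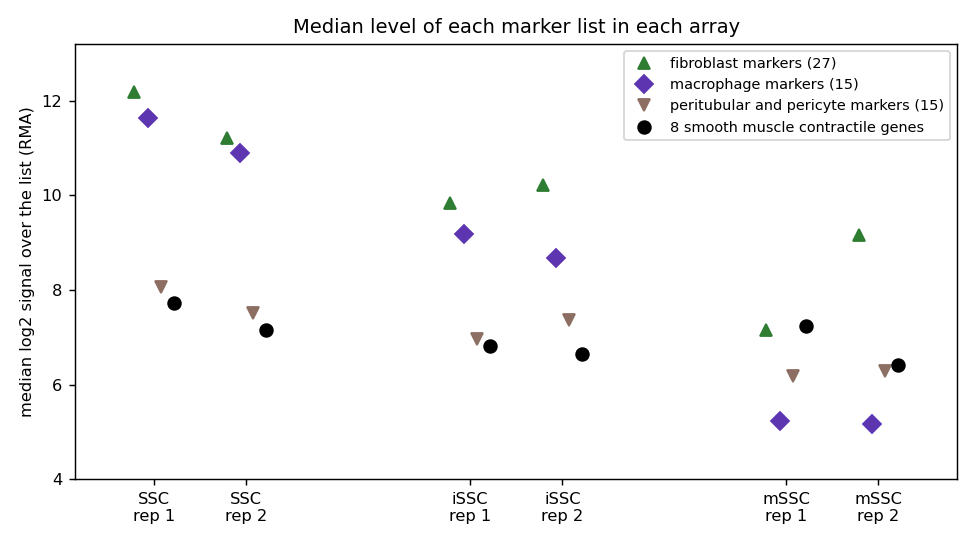
Median log2 signal (RMA) per array over 27 fibroblast, 15 macrophage and 15 peritubular and pericyte markers, and over the 8 contractile genes. The macrophage median falls from 11.64 in SSC replicate 1 to 5.18 in mSSC replicate 2, and the fibroblast median differs between the mSSC arrays, at 7.15 and 9.17.

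Calls among other genes of the contractile machinery went in both directions. Of 29 measured in a wider list 7 fell and 3 rose in mSSC against SSC. Their median was -0.30, against 0.08 over all genes, of which 10.6% were called lower and 8.22% higher. Mylk, the kinase that phosphorylates the light chain encoded by Myl9, was at 9.84 and 9.41 in SSC, 8.31 and 7.77 in iSSC, and 5.77 and 6.40 in mSSC. It fell 11.6-fold against SSC (-3.54 ± 0.32, adjusted p = 0.00195) and 3.89-fold against iSSC (-1.96 ± 0.32, adjusted p = 0.0114), with the same sign in all 3 of its probe sets. Cald1, which encodes the actin-binding caldesmon, fell 4.08-fold in mSSC against SSC (-2.03 ± 0.38, adjusted p = 0.0157), with this sign in 4 of 5 probe sets. Cav1, the main protein of caveolae, fell by 3.41 ± 0.75 on the log2 scale (adjusted p = 0.0265). Vcl, Itga8, Tgfb1i1 and the phosphatase subunit gene Ppp1r12b made up the rest of the lower members, Vcl with that sign in 1 of 2 probe sets and Ppp1r12b in 3 of 4.

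The 3 members that rose were Csrp2, Ppp1r14a and Ldb3, the last with that sign in 2 of 3 probe sets. Csrp2, a LIM domain protein of vascular smooth muscle, was at 8.25 and 8.27 in SSC, 9.48 and 8.51 in iSSC, and 12.25 and 11.30 in mSSC. It rose 11.5-fold against SSC (3.52 ± 0.43, adjusted p = 0.00440). Ppp1r14a, which encodes the inhibitor of myosin phosphatase CPI-17, rose by 2.85 ± 0.43 (adjusted p = 0.00851). In iSSC against SSC none of the 29 was called by limma, with 9 at an unadjusted p under 0.05 (7 lower and 2 higher). In mSSC against iSSC 3 rose (Csrp2, Ppp1r14a and Ldb3) and 2 fell (Mylk and Hspb6). The shares of all genes there were 7.53% higher and 9.60% lower, and in iSSC against SSC 2.09% were called. Over the alternatives the number of lower members in mSSC against SSC ran from 4 to 10 and that of higher members from 2 to 4.

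Among 24 measured regulators of the contractile genes 6 fell and 2 rose in mSSC against SSC. The shares of all genes called were 10.6% lower and 8.22% higher. Srf, which encodes serum response factor, was at 8.27 to 8.79 in all arrays and did not pass (-0.27 ± 0.23, adjusted p = 0.480). Myocd, which encodes myocardin, was at 3.91 to 4.91, and 4 of 6 arrays were below their lower quartile. Mrtfb, a myocardin-related co-activator, was at 11.24 and 10.83 in SSC, 10.22 and 10.48 in iSSC, and 8.15 and 8.78 in mSSC. It fell 5.92-fold against SSC (-2.57 ± 0.29, adjusted p = 0.00380) and 3.69-fold against iSSC (-1.88 ± 0.29, adjusted p = 0.00984). Its relative Mrtfa was at -1.60 ± 0.46 (adjusted p = 0.0589).

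Elk4, a partner of serum response factor from the ternary complex family, fell 4.11-fold in mSSC against SSC (-2.04 ± 0.24, adjusted p = 0.00387), with this sign in 3 of 4 probe sets. Mef2a, a transcription factor of muscle, fell 4.16-fold in mSSC and 4.87-fold in iSSC against SSC (-2.28 ± 0.29, adjusted p = 0.0287 in iSSC). Klf5 rose 20.9-fold in mSSC against SSC (4.39 ± 0.45, adjusted p = 0.00279). It is known in proliferating smooth muscle and also in pluripotent cells, whose 13 markers all rose between the same arrays. Foxf1, a mesenchymal factor, was highest in iSSC, at 9.59 and 8.88, against 7.76 and 6.78 in SSC and 4.61 and 4.16 in mSSC. It fell in mSSC against iSSC (-4.85 ± 0.41, adjusted p = 0.00189) and did not pass in iSSC against SSC (1.97 ± 0.41, adjusted p = 0.0774).

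Of 18 receptors and ligands that drive contraction or myofibroblast change 5 fell in mSSC against SSC and none rose. The shares of all genes called were 10.6% lower and 8.22% higher. The 5 were the growth factor receptors Pdgfra and Pdgfrb, the Tgf-beta receptors Tgfbr1 and Tgfbr2 and the peptide gene Edn1. Tgfbr2 was at 11.47 and 11.16 in SSC, 10.10 and 11.00 in iSSC, and 5.73 and 8.12 in mSSC, and it fell by 4.39 ± 0.74 (adjusted p = 0.0119), with this sign in 2 of 3 probe sets. Without mSSC replicate 2 the count of the list was 3.

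Relatives of the 8 genes, most of them cytoskeletal genes of non-muscle cells, had 2 lower and 0 higher calls among 17 in mSSC against SSC (limma, with 2 in each direction at an unadjusted p under 0.05). As 10.6% of all genes were called lower and 8.22% higher, 2 lower calls among 17 is near the share over all genes. The list also holds Lmod2 and Lmod3, leiomodins of striated muscle, which were below the lower quartile in all arrays. The 2 were Vim (-1.58 ± 0.30, adjusted p = 0.0169), which encodes vimentin, and the filament-capping Tmod1 (-0.77 ± 0.20, adjusted p = 0.0428). The lower count was 0 without SSC replicate 1 and 0 without mSSC replicate 2. The median of these relatives was -0.17, against -1.99 for the 8 contractile genes, and the difference between the lists was not tested.

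Of 36 striated muscle genes measured 6 rose and 0 fell in mSSC against SSC (limma, with 10 higher and 0 lower at an unadjusted p under 0.05), at a median of 0.26 against 0.08 over all genes, of which 8.22% were called higher. Mylpf, a fast skeletal light chain, was at 5.48 and 5.55 in SSC, 6.75 and 5.86 in iSSC, and 9.65 and 10.88 in mSSC. It rose 26.9-fold against SSC (4.75 ± 0.47, adjusted p = 0.00240). Myl4, an atrial and embryonic light chain, rose 8.44-fold (3.08 ± 0.43, adjusted p = 0.00697), and Tnnt1, a slow muscle troponin, rose 7.06-fold (2.82 ± 0.33, adjusted p = 0.00388). Actn2, Myl7 and Ryr2 were the other 3, and Ryr2 was below the lower quartile in 4 of 6 arrays. None of the 4 muscle-determining factors passed. Myf5 and Myf6 were below the lower quartile in all arrays, Myod1 was at 5.38 to 6.12 (0.45 ± 0.24, adjusted p = 0.256) and Myog at 5.03 to 6.21 (0.15 ± 0.41, adjusted p = 0.833). The sarcomeric actins Acta1 (-0.04 ± 0.27, adjusted p = 0.927) and Actc1 (-0.16 ± 0.23, adjusted p = 0.689) did not pass.

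**Figure D4:**
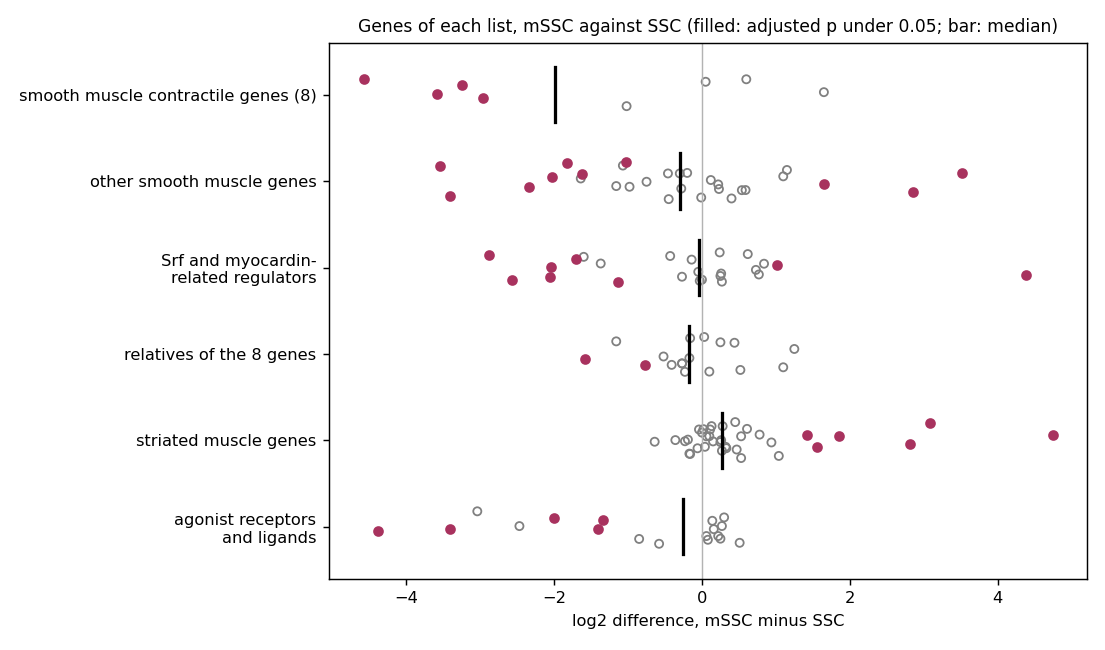
Log2 difference of mSSC minus SSC for every measured gene of 6 lists, filled where the adjusted p is under 0.05 (limma), with a bar at each list's median. Among these 6 lists the 8 contractile genes have the lowest median (-1.99). Medians of marker lists not drawn were lower: fibroblast -3.26, macrophage -5.14, germ line -2.71 and Leydig -2.27. The 6 filled points among the striated muscle genes all lie to the right of 0.

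The genes whose profiles over the 6 arrays were most like the mean profile of the 8 were Igf1r, Mfap4, Clec7a, Rora, Atp6v0a1 and Rassf4. Likeness was the root mean square difference of values centred on each gene's mean, among genes with a range of at least 1, and lay between 0.11 and 0.16 for these 6. Igf1r, the receptor of insulin-like growth factor, was at 11.30 and 9.74 in SSC, 9.64 and 9.33 in iSSC, and 9.08 and 8.66 in mSSC. Like the mean profile, it was highest in SSC replicate 1. Nearest to single members were Ctsk to Acta2 (0.34), Ly86 to Actg2 (0.16), Cxcl14 to Tagln (0.22) and Msr1 to Myl9 (0.28). Syne2 was nearest to Cnn1 (0.22), Gm9564 to Des (0.11), Metap1d to Myh11 (0.14) and Grik5 to Lmod1 (0.11). No member was among the 2 genes nearest to another member, and Lmod1, with a range under 1, could not be. Within the 8 the closest pairs were Myh11 with Lmod1 (0.55), Cnn1 with Des (0.56), Actg2 with Tagln (0.62), Tagln with Myl9 (0.66) and Acta2 with Tagln (0.70). The measure is not scaled, so genes that vary little come out close, such as Lmod1 (range 0.74) and Myh11 (range 2.00). With 6 arrays of 3 types this likeness is a description of these arrays.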

How the data were processed

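Gene expression was measured on 6 microarrays, 2 per cell type. Per the labels' protocols, 10 µg of total RNA was amplified and biotin-labelled with NuGEN kits. The deposited values are log2 signals that the authors made with RMA, per the submitters' processing notes (version and build not given in the sources used here). Of 45101 probe sets 34958 had 1 symbol, 932 several and 9211 none in the platform table. Of the single-symbol sets 34754 matched RefSeq (GRCm38.p6) by gene identifier. No filter on low values was used and 0 columns were left out.

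One 2-sided linear model with a mean per cell type was fitted to the 6 arrays (limma 3.58.1, R 4.3.3), and the small number of arrays limits precision. The members and lists were chosen with earlier results of these data known. The genes named are the 8 members, genes among the 4 smallest p of their list in a comparison, and the nearest profiles. Not every gene with such a p is named. No single macrophage, Sertoli, Leydig, endothelial, germ line or pluripotent marker is. Actb, Actg1, Srf, Myocd, Mrtfa, Rgs5, Acta1, Actc1, Myf5, Myf6, Myod1 and Myog were added after their values were seen. So were the other list members named, Cald1 and Cav1 among them. One further gene list is not reported here. The test was tried on simulated data with known changes. Alternatives were a replicate term, leaving out dim genes, fitting only the 4 arrays compared, another variance model, averaged probe sets, other scalings, a minimum change of 1.2-fold, other probe sets and leaving out each array. Leaving out either array of the type not compared is the same fit as only the 4 arrays compared. The counts of alternatives passed include it each time.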

Additional observations from a re-analysis of the deposited data

How the results depend on the processing

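The number of the 8 genes called in mSSC against SSC was 4, stayed between 3 and 5 under the settings that kept all 6 arrays or dropped a whole kind, and was 2 to 5 on leaving out 1 array. In iSSC against SSC it was 1, and 0 with only the 4 arrays compared, with probe sets averaged, with arrays centred on the median and with a minimum change of 1.2-fold, and 0 to 3 on leaving out 1 array. In mSSC against iSSC it was 1, and 2 with only the 4 arrays compared, 0 after quantile normalization, 0 with arrays centred on the median, 0 with a minimum change, and 0 to 2 on leaving out 1 array. With the replicate block the counts were 5, 1 and 1, Des being the gene added. The replicate numbers are not known to pair samples: the replicate differences correlated across genes at 0.12 (SSC and iSSC), 0.0683 (SSC and mSSC) and 0.171 (iSSC and mSSC). Signs turned for values near 0, by probe set or, for Cnn1, on leaving out mSSC replicate 1. For mSSC minus SSC these were 0.39 (Acta2) and 0.27 (Myh11) from other probe sets, -0.47 (Cnn1) and -0.14 (Lmod1) without mSSC replicate 1, and -0.32 (Lmod1) without SSC replicate 2. For iSSC minus SSC they were 0.20 (Acta2) and 0.03 (Myh11) from other probe sets, and for Lmod1 -0.03 after quantile normalization, -0.35 without SSC replicate 2 and -0.02 without iSSC replicate 1. For mSSC minus iSSC they were 0.13 and 0.18 (Acta2), 0.24 (Myh11) and -0.17 (Des) from other probe sets, and for Myh11 0.08 with probe sets averaged, 0.10 with arrays centred and 0.05 without mSSC replicate 2, and for Lmod1 -0.02 without iSSC replicate 2 and -0.16 without mSSC replicate 1. On leaving out 1 array Cnn1 ran from -0.47 to 1.67 and Lmod1 from -0.32 to 0.42 for mSSC minus SSC, and Myh11 from -0.22 to 0.05 and Lmod1 from -0.16 to 0.21 for mSSC minus iSSC. The cause was not tested. Over all genes the 3425, 381 and 3117 calls became 1966 in mSSC against SSC with 4 arrays, and 148 with the block, 29 with averaged probe sets and 203 with a minimum change in iSSC against SSC. On leaving out 1 array they were 1966 to 3462, 0 to 503 and 604 to 3724. Signal near background limits Myh11, the iSSC and mSSC values of Actg2 and the second probe sets.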
